A study of Bos taurus with 8 samples.

Results

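The miR-17-92 family of plasma exosomes was followed on the 8 arrays of the series, as the 10 bovine miRNAs whose array entry is named bta-miR-17-5p, bta-miR-18a, bta-miR-19a, bta-miR-19b, bta-miR-20a, bta-miR-92a, bta-miR-106a, bta-miR-106b, bta-miR-93 or bta-miR-25, out of 744 miRNAs on the array. They were chosen by name, and all 10 were flagged as detected on all 8 arrays, as were 143 of the 744. Each array held exosomal RNA pooled from 3 Japanese Shorthorn steers, castrated males raised without grain, of which the grazing group was on pasture through the first 4 mo and the housed group was given cut grass in a free-stall barn. There was 1 array for each group at 0, 1, 2 and 4 mo. The 0 mo arrays precede the pasture period, the pools of a group at different months came from the same animals, and pooling removes the spread between animals, so no array value carries a replicate error.

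The family arose by duplication of 1 ancestral cluster, and each cluster is transcribed as 1 primary RNA that is cut into several miRNAs. A miRNA finds its targets mainly through its seed, the bases near its 5′ end, and the family falls into 4 seed groups. miR-17-5p, miR-20a, miR-93, miR-106a and miR-106b share one seed, whose known targets include the cell cycle inhibitor CDKN1A. miR-18a stands alone, miR-19a and miR-19b share another, and miR-25 and miR-92a share the last, which includes the pro-apoptotic BCL2L11 among its targets. The clusters are driven by MYC and E2F factors in dividing cells, are active in lymphoid and erythroid precursors, and their miRNAs are common in blood.

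The array design places the 6 miRNAs of the miR-17-92 cluster, miR-17-5p, miR-18a, miR-19a, miR-20a, miR-19b and miR-92a, at chr12:66226574-66227323 of UMD_3.1, from the first to the last probe. The probes of miR-106b, miR-93 and miR-25 lie at chr25:36892062-36892521, and those of the miR-106a-363 cluster, of which miR-106a was the member, at chrX:17917759-17918560. The probes of miR-19b and miR-92a are placed on chromosomes 12 and X, so their signal belongs to both clusters together. In the RefSeq annotation of ARS-UCD2.0 the same 3 gene groups are neighbours, and MIR106B, MIR93 and MIR25 lie within the span of MCM7, a gene of the DNA replication helicase. Exon or intron positions in UMD_3.1 were not analysed here.

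Each miRNA was read by 2 probes of different length, 40 spots in all, and the longer probes are shown because their likeness bears on every comparison between members. All are written 5′ to 3′ as antisense DNA. In the miR-17-5p and miR-106a probes the capitals mark 16 bases that both hold without a mismatch, and in the miR-20a probe they mark the base that differs from miR-17-5p (G13A, counted from the 5′ end of the miR-17-5p probe). In the miR-19 probes they mark the single difference (A13G, counted in miR-19a), and in miR-92a and miR-25 the 3 differences (A1T, G5A and G9A, counted in miR-92a).
miR-17-5p: acTACCTGCACTGTAAGC
miR-106a: TACCTGCACTGTAAGCa
miR-20a: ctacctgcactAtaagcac
miR-19a: tcagttttgcatAgatttgca
miR-19b: tcagttttgcatGgatttgc
miR-92a: AcagGccgGgacaagt
miR-25: TcagAccgAgacaagtgc
The 16-base probe of miR-106a lies wholly inside the miR-17-5p probe. How far one of these miRNAs bound the probe of another was not tested, so the signals of miR-17-5p, miR-20a and miR-106a, and those of miR-19a and miR-19b, may share molecules.

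The deposited labels and the study's own supplementary table of raw signals name the feeding groups in opposite ways. On each of the 8 arrays every detected miRNA (226 of 226 on the array labelled housed 0 mo, 149 of 149 on that labelled grazing 1 mo) lay within 1% of a single column of that table, against at most 12 in any other column. The housed-labelled arrays matched the columns headed G-1 to G-4, which the study's legend gives to grazing cattle. The grazing-labelled arrays matched those headed A-1 to A-4. The legend writes H for the other group and does not explain A, so these columns were taken as that group. Groups are named here by the deposited labels, and every direction between the groups turns round when read by those columns. For miR-19b, the single member for which the study gives a direction, the direction by the labels in the first months on pasture is opposite to the study's. The study's direction came from qRT-PCR of single animals, an unlike measure. The array values are of pools and were not set relative to let-7g, as that qRT-PCR was. On the log2 scale described below, miR-19b was higher by the grazing label by 0.20 (error 0.15) at 1 mo and by 0.50 (error 0.15) at 2 mo. Of these differences only that at 2 mo passed 2 times its error. The directions of miR-144 and miR-451, which are not members, are also opposite and are given below with the blood cell miRNAs. The labels also coincide with the slide, where housed-labelled arrays lay in column 1 and the grazing-labelled ones in column 2, so position and group cannot be told apart. The summed signal of detected miRNAs ran from 45507 to 157696 per array, highest on the array labelled housed 0 mo, and signals were therefore set relative to the 90th percentile of the 744 miRNAs on an array and taken to log2. The values below are on this scale, with the scanner software's error estimate, which covers the spots of 1 array.

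The seed group of miR-17-5p showed its lowest scaled values at 0 mo on the grazing-labelled arrays. For miR-17-5p the log2 scaled signal was 1.02, 1.27, 1.23 and 1.26 at 0, 1, 2 and 4 mo on the housed-labelled arrays, and 0.64, 1.49, 1.29 and 0.85 on the grazing-labelled ones (error 0.12 to 0.13). For miR-20a of the same cluster it was 2.79, 2.94, 2.99 and 2.98 against 2.43, 3.03, 2.90 and 2.60 (error 0.11). For miR-106a, encoded on the X chromosome, it was 0.55, 0.54, 0.60 and 0.60 against 0.21, 0.70, 0.59 and 0.27 (error 0.12 to 0.13). In these 3 miRNAs the grazing-labelled arrays were below their housed counterparts at 0 and 4 mo and the ranges overlapped, while the housed-labelled arrays stayed within 0.25 of each other. For miR-106b the values were 2.56, 2.61, 2.76 and 2.79 on the housed-labelled arrays and 2.26, 2.52, 2.29 and 2.35 on the grazing-labelled ones (error 0.11). For miR-93, its neighbour on chromosome 25, they were -0.44, -0.26, 0.027 and -0.027 against -0.51, -0.13, -0.40 and -0.37 (error 0.14 to 0.17). miR-106b and miR-93 were thus lower by the grazing label at 2 and 4 mo. For miR-93 these differences were -0.43 (error 0.21) and -0.34 (error 0.22), the second within 2 times its error. For miR-106b the differences were -0.30, -0.099, -0.46 and -0.43 in the order of the months (error 0.15). They passed 2 times the error at 2 and 4 mo alone. With scaling to let-7g the limma estimate of miR-106b at the later months was -0.0066.

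miR-18a, the single detected miRNA of its seed group, carried the largest error estimates of the 10 members. Its values were -1.57, -1.20, -1.34 and -1.29 on the housed-labelled arrays and -1.89, -1.42, -1.57 and -2.21 on the grazing-labelled ones (error 0.14 to 0.39). It was lower by the grazing label at every month, with differences of -0.32, -0.21, -0.23 and -0.92 (error 0.28 to 0.42). Only that at 4 mo passed 2 times its error. On the array labelled grazing 4 mo, its lowest, 14 of its 40 spots were well above background. The shorter probe of miR-18a, like that of miR-93, exceeded 3 times its error on 3 of the 8 arrays, so both miRNAs rest mainly on their longer probe. For the other 8 members both probes exceeded that limit on all 8 arrays.

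The miR-19 pair had its peak on the array labelled grazing 2 mo. The values of miR-19a were 1.88, 1.79, 1.82 and 1.91 on the housed-labelled arrays and 1.45, 1.94, 2.35 and 1.63 on the grazing-labelled ones (error 0.10 to 0.11). Those of miR-19b were 3.55, 3.30, 3.35 and 3.41 against 3.09, 3.50, 3.84 and 3.27 (error 0.11). On the array labelled grazing 2 mo miR-19b was 0.50 (error 0.15) above the housed array of that month, and at 0 mo it was 0.46 below it (-0.46, error 0.15). The range of the grazing-labelled arrays enclosed that of the housed-labelled arrays in both miRNAs.

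miR-92a and miR-25, which share a seed but not a cluster, moved differently. The values of miR-92a, a miRNA known from endothelial cells, were 1.03, 1.35, 1.88 and 1.51 on the housed-labelled arrays and 1.51, 2.00, 1.96 and 1.81 on the grazing-labelled ones (error 0.11). Those of miR-25 were 2.12, 2.12, 2.50 and 2.41 against 2.03, 2.21, 1.98 and 2.30 (error 0.11). miR-92a was higher by the grazing label at every month, with differences of 0.48, 0.65, 0.079 and 0.30 in the order of the months (error 0.15), and it was the single member that was higher at 0 mo. For miR-25 the difference passed 2 times its error at 2 mo alone (-0.52, error 0.15).

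**Figure D1:**
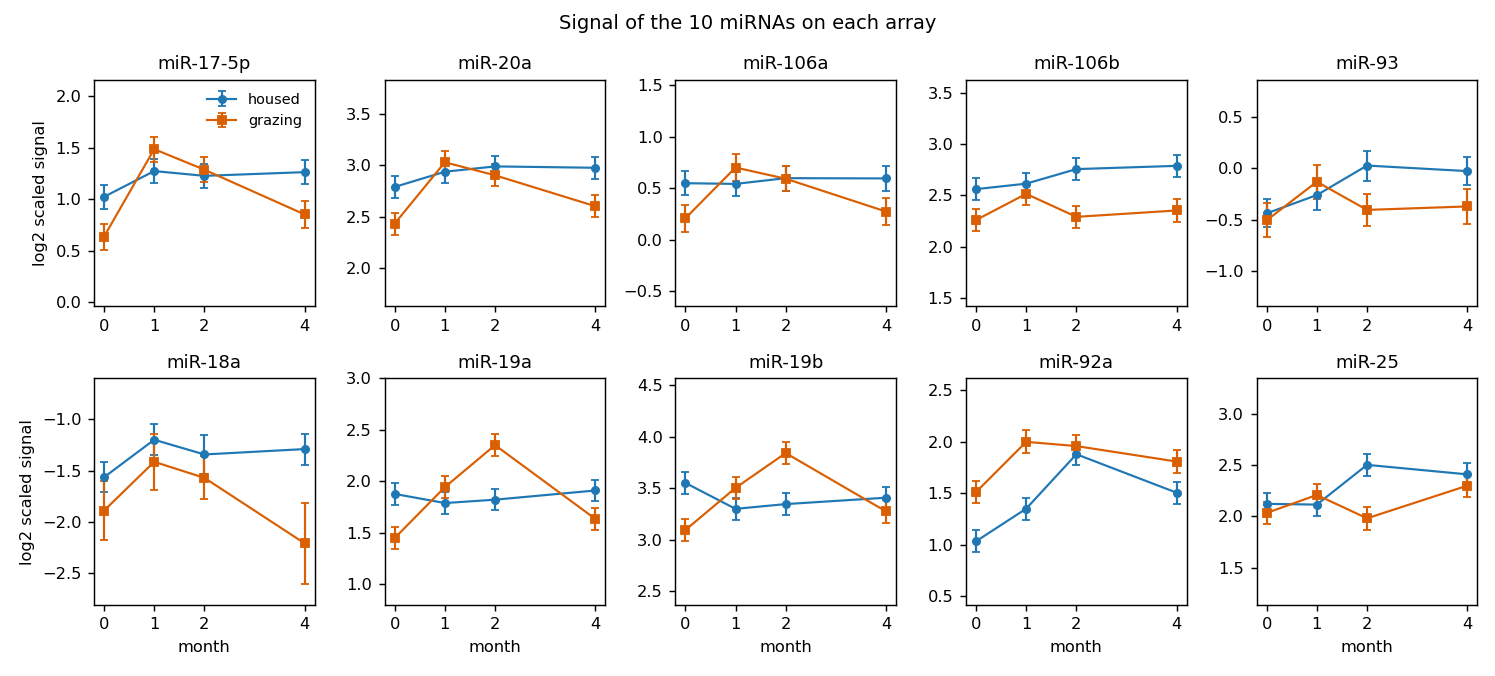
Log2 signal of each of the 10 miRNAs, scaled to the 90th percentile of its array, against month, with 1 point per array (circles, labelled housed; squares, labelled grazing) and bars for the scanner software's error estimate. All panels span the same log2 range. The miR-19 pair peaked on the array labelled grazing 2 mo (2.35 and 3.84). By the grazing label miR-106b was lower and miR-92a higher at every month, though not beyond 2 errors at each.

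Over the 10 members the median difference between the labels, grazing minus housed, was -0.33, 0.14, -0.046 and -0.33 from the first month to the last, beside -0.22, 0.088, -0.017 and -0.17 over the 143 miRNAs. The members thus followed the sign of the whole array at every month. By the grazing label 9 of the 10 were lower at the start, 8 were higher at 1 mo, 4 were higher a month later, and 9 were lower at the end. In the same order, the difference exceeded 2 times its error in 5, 1, 5 and 4 of the 10 members, beside 51.7%, 37.8%, 35.7% and 55.9% of the 143 miRNAs. At 2 mo these were miR-19a and miR-19b, which were higher, and miR-106b, miR-93 and miR-25, which were lower.

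Whether the groups differed once grazing had begun was tested with limma on the 6 arrays of 1, 2 and 4 mo with month as a block, with Benjamini-Hochberg adjustment over the 143 miRNAs. None of the members was called at an adjusted p under 0.05 (0 of 10), whereas 16 of 143 miRNAs were (11.2%), 9 higher and 7 lower by the grazing label. That split moved with the scaling, to 31 higher of 33 with let-7g and 0 higher of 11 with normexp background correction. The estimate of let-7g itself was -0.33 (95% interval -0.74 to 0.090), and scaling to let-7g raises the estimate of every member by the size of that value. At an unadjusted p under 0.05 the count was 1 of 10 members and 52 of 143. That member was miR-18a, at -0.45 (95% interval -0.90 to -0.0065, limma adjusted p = 0.130). The estimate was -0.33 for miR-106b (-0.75 to 0.089, limma adjusted p = 0.258) and 0.34 for miR-92a (-0.086 to 0.77, limma adjusted p = 0.253). For miR-17-5p it was -0.046 (-0.48 to 0.39). The median estimate of the members was -0.089, beside -0.0094 over the 143. The months take the place of replicates here and come from the same animals, so these p-values measure the spread between months. For each miRNA limma estimates that spread partly from all 143 miRNAs, and not from its own residuals alone.

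The 3 later grazing-labelled arrays all lay below the 3 labelled housed for 2 members, miR-18a and miR-106b, beside 34 of 143 miRNAs (23.8%). They all lay above for 0 members, beside 28 of 143 (19.6%). Both counts were near or under the background of the array.

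The change from the array of the same label at 0 mo was compared next, since the pools already differed then. On the grazing-labelled arrays all 10 members were above their 0 mo value at 1 mo (0.18 to 0.85, median 0.48), beside a median of 0.25 over the 143 miRNAs. At 2 mo 9 members were above it (-0.052 to 0.90, median 0.42, beside 0.012) and at 4 mo 9 (-0.32 to 0.30, median 0.17, beside 0.093). On the housed-labelled arrays 6, 8 and 9 members were above their 0 mo value, with medians of 0.10, 0.20 and 0.23, beside 0.019, -0.031 and 0.017. The largest changes were 0.90 (error 0.15) for miR-19a on the array labelled grazing 2 mo and 0.85 both for miR-17-5p on the array labelled grazing 1 mo (error 0.18) and for miR-92a on that labelled housed 2 mo (error 0.15).

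For the mean change from 0 mo, limma called a difference between the labels in 0 of 10 members and 2 of 143 miRNAs (1.40%), and 0 members and 9 miRNAs had an unadjusted p under 0.05. The estimate was 0.65 for miR-19b (95% interval -0.22 to 1.51, limma adjusted p = 0.802) and 0.56 for miR-19a (-0.33 to 1.46, limma adjusted p = 0.802). It was 0.34 for miR-17-5p, 0.29 for miR-106a and 0.23 for miR-20a. The estimates of miR-106b, miR-93, miR-25, miR-92a and miR-18a lay between -0.15 and -0.032. With 1 array per label at 0 mo the standard error was 0.40 to 0.42. miR-19b was the single member with opposite changes on every later array, -0.25, -0.21 and -0.14 on the housed-labelled ones and 0.41, 0.75 and 0.18 on the grazing-labelled ones, a pattern that 13 of 143 miRNAs showed (9.09%).

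Averaged over both labels, the later months were above 0 mo in all 10 members by their estimates, with a median of 0.23 beside 0.089 over the 143 miRNAs. By limma 0 of 10 members were called, beside 1 of 143 (0.699%), and at an unadjusted p under 0.05 the counts were 1 and 35. That member was miR-92a at 0.48 (95% interval 0.089 to 0.87, limma adjusted p = 0.122), followed by miR-17-5p at 0.40 (-0.028 to 0.83, limma adjusted p = 0.235) and miR-20a at 0.29 (-0.085 to 0.67). Without scaling, where the higher signal of the array labelled housed 0 mo remains, the median of the members was -0.11 and that of the 143 miRNAs -0.25.

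**Figure D2:**
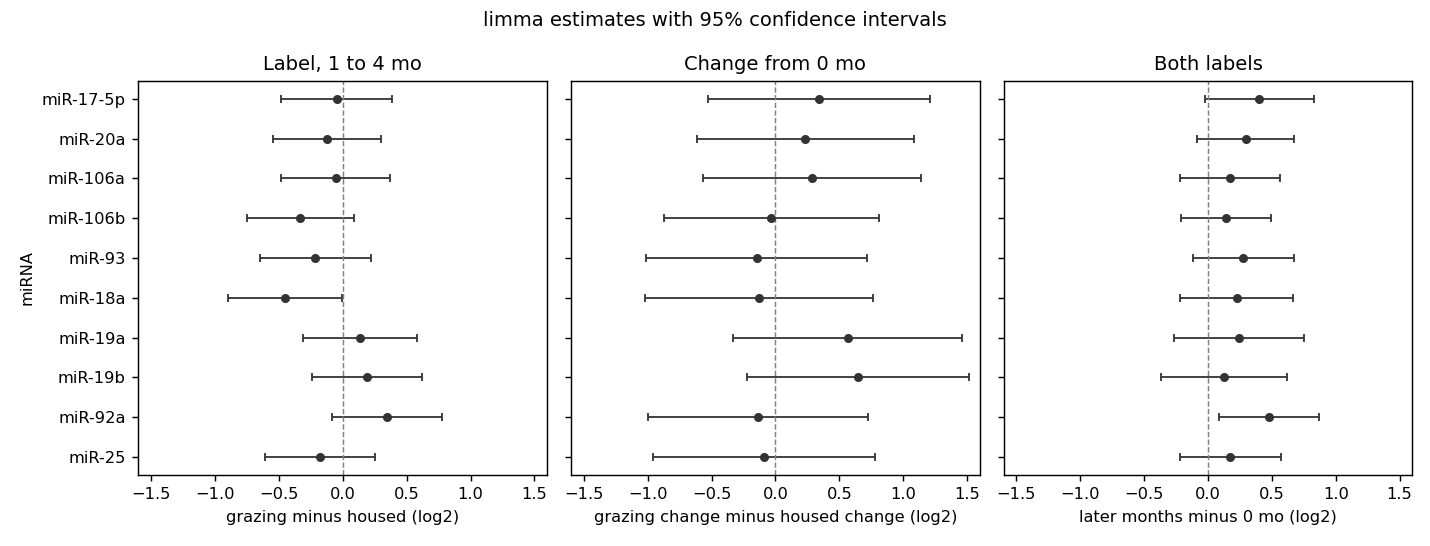
Estimates of limma (points) with 95% confidence intervals (bars) for the 10 miRNAs, on the log2 scale, for the difference between the labels at 1 to 4 mo, the difference in mean change from 0 mo, and the mean change from 0 mo over both labels. The intervals of miR-18a on the left and miR-92a on the right end short of 0, and neither miRNA was called after adjustment over 143 miRNAs.

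A ratio between 2 miRNAs of 1 array does not depend on the scaling, so the members were also compared by how far each ratio varied over the 8 arrays. The ratio of miR-106a to miR-20a had an SD of 0.065 on the log2 scale, that of miR-19a to miR-19b 0.074 and that of miR-17-5p to miR-20a 0.088. The chromosome 25 cluster followed, with 0.11 for miR-93 to miR-25, 0.11 for miR-106b to miR-93 and 0.14 for miR-106b to miR-25. These SDs were at or below the error of a ratio on 1 array, 0.15 for miR-19b over miR-19a. The 3 pairs with the lowest SD have probes that differ by 1 base over their overlap. miR-17-5p and miR-106a, with 0 mismatches over 16 bases, had an SD of 0.12, also under the error of that ratio on 1 array (0.17 to 0.18). The probes of miR-93 and miR-25, next in order after those 3 pairs, differ at 5 of 9 bases. SDs under the error cannot be ranked with confidence, and the part of shared probe binding in them was not tested.

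Grouped by origin, the 3 pairs with the same cluster and seed had a median SD of 0.088, the 9 pairs with the same seed in different clusters 0.16, the 17 pairs of 1 cluster with different seeds 0.23 and the 16 pairs that shared neither 0.30, where miR-19b and miR-92a counted with the clusters of both chromosomes 12 and X. Over all 10153 pairs of the 143 miRNAs the median was 0.48. Without the array labelled grazing 2 mo the medians were 0.087, 0.13, 0.22 and 0.21, so that pairs of 1 cluster with different seeds no longer varied less than pairs sharing neither. Without the array labelled housed 0 mo they were 0.076, 0.17, 0.22 and 0.31. The 12 pairs that share a seed had at most 4 mismatches over probe overlaps of 15 bases or more. Pairs of miR-18a, of another seed, with miR-20a, miR-106a and miR-106b had 3, 4 and 4 mismatches over 18, 17 and 17 bases. Their SDs were 0.20, 0.22 and 0.23, with the larger error of miR-18a. The parts of seed and probe likeness were not tested. The 5 miRNAs outside the family most like the mean of the 10 members over the 8 arrays were miR-103 (r = 0.88), miR-339a (r = 0.88), let-7d (r = 0.87), miR-21-5p (r = 0.86) and let-7i (r = 0.83), a description of arrays that share their scaling.

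**Figure D3:**
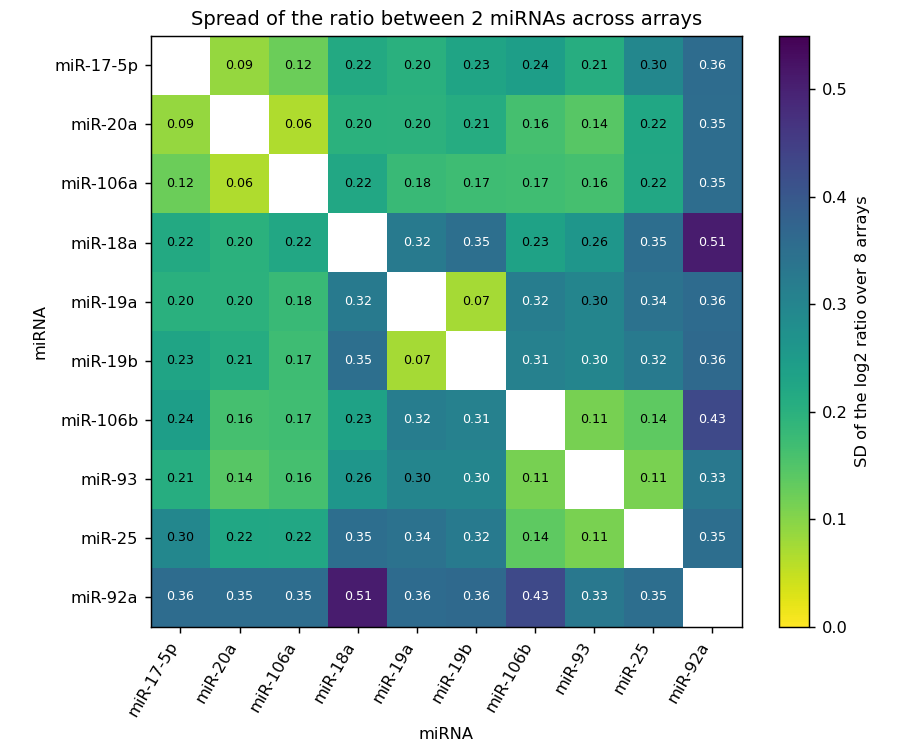
SD over the 8 arrays of the log2 ratio between each pair of the 10 miRNAs, with darker cells for ratios that varied more. miR-17-5p, miR-20a and miR-106a form one tight block (0.065 to 0.12), miR-19a and miR-19b a second (0.074), miR-106b, miR-93 and miR-25 another (0.11 to 0.14), and miR-92a varied against every other member (0.33 to 0.51).

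Between the blocks the ratios moved with month and label. The log2 ratio of the miR-19 pair to the chromosome 25 cluster (means of log2 values) was 1.30, 1.05, 0.82 and 0.94 at 0, 1, 2 and 4 mo on the housed-labelled arrays and 1.01, 1.19, 1.81 and 1.03 on the grazing-labelled ones (error 0.10 to 0.11). At 2 mo the labels differed by 0.98 (error 0.15), or 1.98-fold, at 1 and 4 mo by 0.14 and 0.090, and at 0 mo by -0.29 (error 0.15). The miR-17-5p, miR-20a and miR-106a block against the same cluster showed 0.039, 0.095, -0.16 and -0.11 on the housed-labelled arrays and -0.17, 0.21, 0.30 and -0.19 on the grazing-labelled ones (error 0.095 to 0.10), with a difference of 0.46 (error 0.14) at 2 mo. The separation of the blocks was thus widest on the array pair of 2 mo. Each label had 1 array at that month, and the p of the ratio of the miR-19 pair over all 8 arrays was 0.400 by an exact permutation test of the labels (two-sided). That test treats the months of a label as replicates, though they come from the same animals.

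miR-92a stood apart from its seed partner and from its own cluster. Its log2 ratio to miR-25 was -1.09, -0.77, -0.62 and -0.90 on the housed-labelled arrays and -0.52, -0.21, -0.024 and -0.49 on the grazing-labelled ones (error 0.15 to 0.16), without overlap. The labels differed by 0.57, 0.56, 0.60 and 0.41 at 0, 1, 2 and 4 mo (error 0.22 each), so the difference was present before the pasture period as well as after it. The mean difference was 0.53, or 1.45-fold, with an SD over months of 0.20 on the housed-labelled arrays and 0.24 on the grazing-labelled ones (n = 4 arrays each, exact permutation test, two-sided, p = 0.0286, the smallest that 4 against 4 arrays can give). The arrays of a label come from the same animals, so this p measures the spread between months and not that between animals. Of the 45 pairs of members 6 did not overlap between the labels, and all 6 included miR-92a, against miR-18a, miR-20a, miR-106a, miR-106b, miR-93 and miR-25. Among all pairs of the 143 miRNAs 1838 of 10153 did not overlap (18.1%), so the count over the members was under the background of the array. After Benjamini-Hochberg adjustment over the 45 pairs the p of these 6 exact permutation tests was 0.214, and changing signs within the 4 months could not go below 0.125. The ratio of miR-92a to miR-25 kept this separation in 3 other summaries of the spots. Against the mean of the other 5 of its cluster, miR-92a was at -0.50, -0.27, 0.27 and -0.15 on the housed-labelled arrays and at 0.37, 0.29, 0.20 and 0.58 on the grazing-labelled ones (error 0.12 to 0.14), which overlapped at 2 mo.

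**Figure D4:**
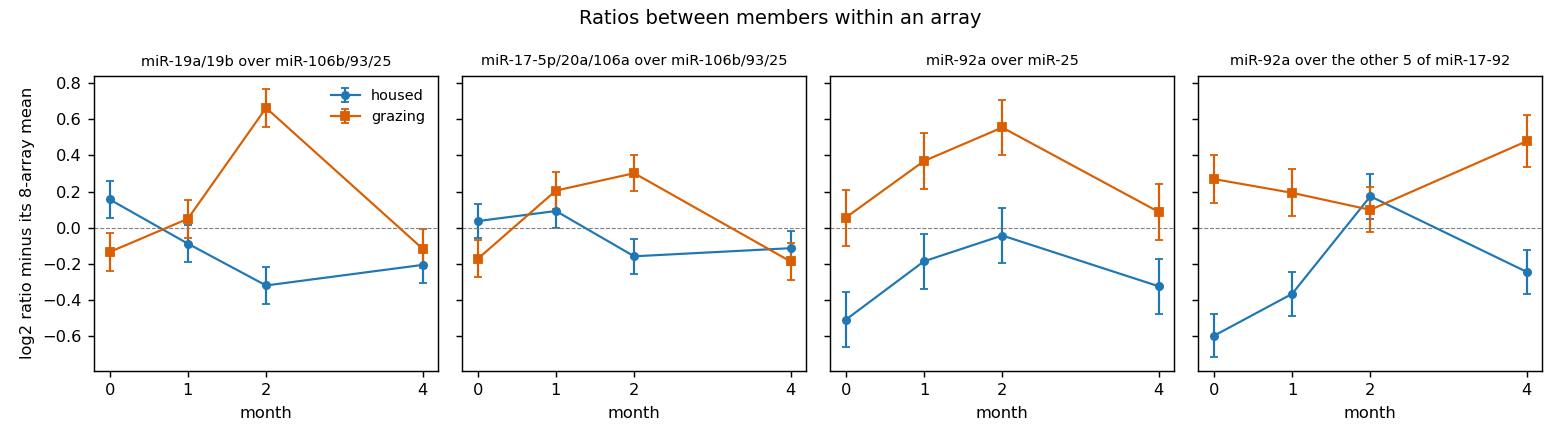
Log2 ratios between members within an array, less their mean over the 8 arrays, against month (circles, labelled housed; squares, labelled grazing; bars, scanner error estimate). The ratio of the miR-19 pair to the chromosome 25 cluster parted by 0.98 at 2 mo, and that of miR-92a to miR-25 by 0.41 to 0.60 at all 4 months.

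Of 7 other entries of the same clusters and seeds 2 were detected on all 8 arrays, 1 on 1 array and 4 on 0. miR-17-3p, cut from the other strand of the miR-17 hairpin, was detected on all 8 arrays at a signal of 4.56 to 30.3, but on the grazing-labelled arrays 2 to 19 of its 40 spots were well above background. Its limma estimate at the later months was -0.65 (95% interval -1.11 to -0.19, adjusted p = 0.0548). miR-32, which shares the seed of miR-25 and lies on chromosome 8, was detected on 8 arrays at a signal of 7.77 to 42.1, with an estimate of -0.10 (-0.54 to 0.34). miR-20b, of the X chromosome cluster, was detected on 1 array, and miR-18b, miR-92b, miR-363 and miR-367 on 0. The miR-106a-363 cluster was therefore represented by miR-106a alone among entries specific to it, and the miR-106a probe differs from that of miR-20b at 1 base of 16 (A13G, counted in miR-106a).

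Levels of blood cell miRNAs are given beside these results because the family is known from several blood lineages. The 4 miRNAs of a red cell list (miR-451, miR-144, miR-486 and miR-185) were detected on all 8 arrays, with a summed scaled signal of 27.4, 36.2, 41.2 and 49.1 on the housed-labelled arrays and 24.96, 28.3, 16.9 and 24.7 on the grazing-labelled ones. Its lowest value fell on the array labelled grazing 2 mo. There, as at 0 and 4 mo, miR-106b, miR-93 and miR-25 were below their housed counterparts. At 1 mo the list was lower by the grazing label too, while miR-93 (0.13) and miR-25 (0.094) were higher. By limma miR-144 (-1.38, adjusted p = 0.00108) and miR-451 (-0.92, adjusted p = 0.0144) were lower by the grazing label at the later months, while miR-185 (-0.62, adjusted p = 0.0562) and miR-486 (-0.33, adjusted p = 0.326) were not called. The myeloid and pan-leukocyte list (miR-223, miR-142-5p, miR-142-3p and miR-21-5p), of which 3 of 4 were detected on all arrays and miR-142-3p on 0, summed to 35.3, 35.9, 30.3 and 30.8 against 25.9, 47.3, 52.9 and 31.1. It was highest on the array labelled grazing 2 mo, where the miR-19 pair peaked.

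The endothelial and platelet list held the 2 arms of miR-126 alone (miR-126-3p and miR-126-5p, 2 of 2 on all arrays). It summed to between 54.9 and 64.2 on the housed-labelled arrays and between 32.5 and 45.4 on the grazing-labelled ones. The lymphocyte list (miR-150, miR-155, miR-342, miR-181a, miR-181b and miR-146a, 4 of 6 on all arrays, miR-146a on 0) summed to between 1.89 and 2.81 and between 2.39 and 2.89. Of 7 muscle miRNAs 6 were detected on 0 arrays and miR-133b on 2 of the housed-labelled arrays. The part of these cell types in the values of the family was not tested, and fewer cells of a type and less RNA per cell cannot be told apart in plasma.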

How the data were processed

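Plasma exosomal RNA pools of 3 steers were hybridized by the authors to 1-colour custom Agilent miRNA arrays. The submitters' processing notes name Feature Extraction (Agilent), version 10.7.3.1. The deposited intensity values are background-subtracted and not yet normalized. A second table deposited by the authors holds values that are a ratio of the raw signal to 1 factor per array, which served as an alternative. Of 743 entries in it 730 matched the arrays by name. Its columns had medians between 0.000664 and 0.00257, which is the constant given to undetected miRNAs, its scale is linear and not centred, and the set of values behind its 90 percentile stays unknown. Of its columns 0 were left out.

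Total signals were set relative to the 90th percentile of the 744 miRNAs on an array, a floor of 0.114 was set under low and undetected values (no member reached it), and log2 was taken. limma 3.58.1 in R 4.3.3 was fitted to the 143 miRNAs detected on all 8 arrays, with 2 residual degrees of freedom for both comparisons of the labels and 3 for the change over both labels. The fit was run on simulated data with planted changes larger than any estimate of the members, which does not show its power for changes of their size. Other values were computed with Python 3.11.15. Detection was the scanner software's flag, control spots were left out, and 0 spots were saturated. The median error estimate was 8.81 to 9.86% of the signal, and the number of arrays limits the precision. Groups were taken from the labels. Probe positions are those of the array design, in which some entries span 1 base less than the probe. The members, the lists and the rule that names the 5 most alike miRNAs (Pearson r to the mean of the members) were chosen with earlier results of these data known. qRT-PCR of single animals was not analysed here.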

Additional observations from a re-analysis of the deposited data

Results flagged for a closer look

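miR-19b was below its 0 mo value on each of the 3 later arrays labelled housed and above it on each of the 3 labelled grazing, so that the mean changes differed by 0.65 on the log2 scale. By limma this difference was not called (adjusted p = 0.802), and the opposite course itself was not tested beyond that. The same opposite course was seen under 6 of the 11 other scalings and signals, which were tried after seeing the data. This course of miR-19b was known when the members were chosen, so it is no independent support.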

How the results depend on the processing

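limma called 0 of the 10 members in each of its 3 comparisons under every alternative but 2, in which 1 member differed between the labels at the later months: miR-92a, higher, with scaling to let-7g, and miR-106b, lower (-0.57), with normexp background correction. Scaling sets the level: against a median of -0.0094 over the 143 miRNAs in that comparison, it was 0.32 with let-7g, -0.29 with the summed signal and -0.85 without scaling, and the members followed at 0.24, -0.37 and -0.93. With let-7g the estimates turned positive for miR-17-5p (0.28), miR-20a (0.20), miR-106a (0.27), miR-93 (0.11) and miR-25 (0.15), with quantile normalization for miR-17-5p (0.18) and with normexp for miR-18a (0.088). Without scaling they turned negative for miR-19a (-0.71), miR-19b (-0.66) and miR-92a (-0.50). The median difference of the members in change from 0 mo was -0.33 with the 90th percentile over detected miRNAs and 0.68 without scaling. Their median change over both labels was 0.45 with the summed signal and -0.11 without scaling, where miR-18a (-0.12), miR-19a (-0.098), miR-20a (-0.049), miR-106a (-0.17), miR-93 (-0.066) and miR-25 (-0.17) turned negative. These are the 16 sign changes of single members in which either estimate exceeded its standard error; 33 others of 500 estimates changed sign within it. Members wholly below at the later months by the grazing label numbered 4 with the 90th percentile over detected miRNAs, the summed signal or no scaling (beside 47, 46 and 54 of the 143 miRNAs), 0 with let-7g (11), and 1 with quantile normalization (24), the mean processed spot signal (34) or the authors' table (27 of 141). Wholly above were 3 with let-7g (54) and 1 with quantile normalization (27) or the authors' table (28 of 141). Over the 143 miRNAs the calls numbered 0 to 38 in place of 16 between the labels, 0 to 2 in place of 2 in change from 0 mo, and 0 to 17 in place of 1 over both labels. Scaling to let-7g, to the summed signal or to another percentile changes 1 factor per array, as does no scaling. Each of these moved the estimates of all members in a comparison by the same amount. The cause of the other moves was not tested. Leaving out each later month gave medians of -0.20 to 0.040, -0.011 to 0.23 and 0.19 to 0.30 for the 3 comparisons, with 0 members called. Ratios between members had a median SD of 0.23, and of 0.24 and 0.20 without the array labelled housed 0 mo or grazing 2 mo, which were left out after seeing the data, as the other signals for the ratio of miR-92a to miR-25 were added. Low signal limits miR-18a, miR-93 and miR-17-3p.

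Each group has 1 array, so replicate numbers carry no pairing. The arrays of both labels were paired by month, which was the block in the fit at the later months, and without it 0 members were called.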
